A study of Mus musculus with 12 samples.

Results

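The genes described here are those whose response to GW8510, a small-molecule kinase inhibitor, differed between a mouse alpha cell line and a mouse beta cell line, either in direction or because only 1 line moved. Of 12255 genes tested, 447 moved in opposite directions and 326 moved in 1 line and hardly in the other, with 25 genes meeting both definitions. The comparison used all 12 arrays of the series, in 4 groups of 3 biological replicates. aTC1 cells (alpha line) and bTC3 cells (beta line) received GW8510 at 3.3 µM or its vehicle, DMSO at 0.1%, and RNA was collected on day 5 and read on Affymetrix Mouse Genome 430A arrays. The paper that reported the data mentions toxicities at 3.3 µM in its work on alpha cells. Whether cell loss had a part in the differences between the lines was not tested. The titles and the compound field name GW8510 for all 6 treated arrays, while the source labels of replicates 2 and 3 in both lines end in other digits, and the groups follow the titles. The culture notes of the bTC3 arrays repeat those of aTC1, so the medium of the beta line is not given in the sources used here. Both lines come from islet tumours of mice with an SV40 large T antigen transgene, whose product inactivates p53 and retinoblastoma proteins, so all 4 groups share it, and each cell type is represented by 1 tumour line. The quantity compared was the interaction: the log2 fold change (GW8510 over DMSO) in the alpha line minus that in the beta line, so that a negative value means that the alpha line moved lower.

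GW8510 was made as an inhibitor of the cell cycle kinase CDK2. Among the genes with opposite responses, 29 of the 447 are on lists of hypoxia response and glycolysis genes. Many genes of these pathways are targets of the hypoxia-inducible factors (HIF), transcription factors whose alpha subunits are hydroxylated by the Egln enzymes and destroyed when oxygen is plentiful. When oxygen is short, HIF binds short DNA elements and raises glucose uptake, glycolysis and enzymes that modify secreted proteins. In beta cells glycolysis also couples blood glucose to insulin release, through the transporter Slc2a2 and the mitochondria, whereas alpha cells release glucagon when glucose is low.

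The deposited values are array intensities that lie between 20 and 20000, and a value at either bound is only a limit. Array medians were 173.7 to 182.0 on 11 arrays and 199.9 on beta GW8510 replicate 3, which stood apart from the other beta GW8510 arrays. The replicates were biological, but the labels do not say how the cultures were separated, so p-values measure the spread between these samples. The median standard error was 0.12 for an interaction and 0.08 for the response of 1 line (log2, 3 arrays a group). In the alpha line glucagon (Gcg) was at 20000 on all 6 arrays, the alpha cell factor Irx1 was at 1177 to 2184 and Ins2 was at 95.2 to 182. In the beta line Ins2 and Iapp were at 20000 on all 6 arrays and Irx1 at 22.4 to 43.1, but Gcg reached 5997 to 12889.8 and somatostatin (Sst) 17084 to 20000, so probe sets for hormones of other islet cells read high in the beta line too.

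At adjusted p under 0.05 (limma, Benjamini-Hochberg over all genes), the interaction was higher in the alpha line for 1475 genes (12% of those tested) and lower for 2013 (16.4%). Without beta GW8510 replicate 3 these counts were 1775 and 1804, and with the arrays normalized by quantiles once more they were 1956 and 1933, so the excess of lower over higher interactions depended on that array and on the scaling. Within the alpha line alone 2470 genes rose (20.2%) and 2596 fell (21.2%), and within the beta line alone 2417 rose (19.7%) and 1757 fell (14.3%). A shared response was the more frequent one: of 2666 genes called in both lines, 2219 moved the same way and 447 the opposite way. Among the 3488 genes with a called interaction, 776 had moved the same way in both lines but by unequal amounts, larger in the alpha line for 618. A further 1410 were called in the alpha line only, 763 in the beta line only and 92 in neither. The responses of both lines share no arrays, and the classes below describe the values that define them.

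**Figure D1:**
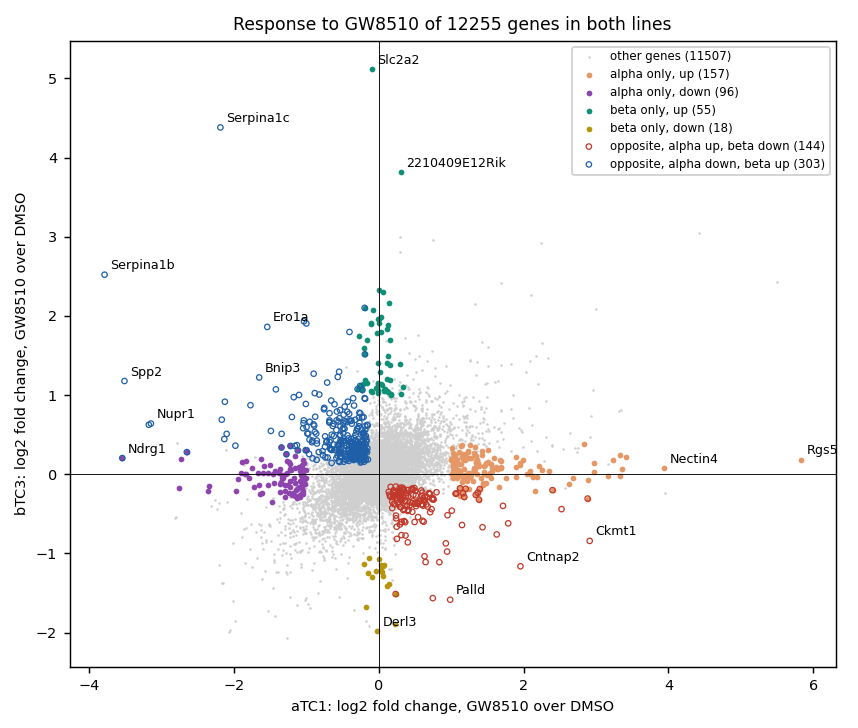
Log2 fold change (GW8510 over DMSO) of each of 12255 genes in aTC1 cells (horizontal) and bTC3 cells (vertical), each point a gene fitted over 3 arrays a group. Open circles are the 144 and 303 genes that moved in opposite directions, filled colours are the 157, 96, 55 and 18 genes that moved in 1 line, and most other genes lie near the centre or along the shared direction.

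A gene was counted as opposite when the interaction and the response of each line passed adjusted p under 0.05 and the responses had opposite signs. The larger group fell in the alpha line and rose in the beta line, with 303 genes (2.47% of those tested), of which 57 changed by at least 0.5 on the log2 scale in each line and 9 by at least 1. The smaller group rose in the alpha line and fell in the beta line, with 144 genes (1.18%), of which 17 changed by at least 0.5 in each line and 1, Cntnap2, by at least 1. In the first group the smaller of both changes was 0.50 for the last gene inside the mark of 0.5 and 0.50 for the next one outside. In the second group these values were 0.52 and 0.50. The GW8510 and DMSO arrays lay entirely apart in both lines for 300 of the 303 genes and for 141 of the 144. Selection at adjusted p under 0.05 on these same arrays favours such separation, and its share over all genes was not counted. The split between the groups changed with the scaling of the arrays, with 246 and 298 genes in place of 144 and 303 after quantile normalization and 205 and 274 without beta GW8510 replicate 3.

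Genes of glycolysis and of the hypoxia response often fell in the alpha line and rose in the beta line. The 2 lists held 59 measured genes, and 29 of them (49.2%) were opposite in this direction, against 2.47% of all genes, while 0 were opposite in the other direction. They made up 9.57% of the 303 genes of this direction, and 31.6% of those with at least 0.5 in each line (18 of 57). The interaction was lower in the alpha line for 38 of the 59, higher for 3 (Ldhb, Egln3 and Tfrc) and did not pass for 18. Over the 29 opposite genes the median log2 fold change was -0.86 in the alpha line and 0.69 in the beta line. These lists were chosen with earlier results known, so their counts describe the members and are not independent evidence.

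Of these genes, the one whose smaller change was largest was Ero1a, the oxidase that renews the disulfide-forming capacity of the endoplasmic reticulum (ER) and is induced by hypoxia. Its intensities in the alpha line were 1061, 1024 and 872 with DMSO and 365, 331 and 319 with GW8510. In the beta line they were 1135, 1168 and 1157 with DMSO and 4301, 4134 and 4136 with GW8510. Both lines thus began at nearly the same level and ended more than 10-fold apart on all arrays. The log2 fold changes were -1.54 and 1.86, and the interaction was -3.40 ± 0.11 (SE, limma, adjusted p = 1.23e-09), with -3.13 and -3.09 by its other probe sets.

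Bnip3, a mitophagy receptor of the mitochondrial outer membrane, read 11410.1, 12164 and 10822 in the alpha line with DMSO and 3951, 3802 and 3229 with GW8510. In the beta line it read 2438, 2890.0 and 3099 with DMSO and 6732, 6268 and 6582 with GW8510. The line with the higher level was therefore the alpha line before treatment and the beta line after it (interaction -2.87 ± 0.14, SE, limma, adjusted p = 4.02e-08). Pdk1, the kinase that shuts pyruvate out of the mitochondria by inactivating pyruvate dehydrogenase, read 2553, 2517 and 2011 with DMSO and 827, 908 and 897 with GW8510 in the alpha line. The beta line gave 568, 713 and 577 with DMSO and 1427, 1162 and 1313 with GW8510, so that the order of the lines was exchanged here as well (interaction -2.49 ± 0.16, SE, limma, adjusted p = 5.21e-07, and -2.46 by its other probe set). P4ha2, a subunit of the collagen prolyl hydroxylase, changed by -1.77 in the alpha line and 0.87 in the beta line (log2).

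The bases just before the start sites of these 4 genes are shown because HIF binds the letters ACGTG or GCGTG, and these promoters belong to the hypoxia and glycolysis genes with opposite responses that are described above. Each line gives bases -150 to -1 from the RefSeq start site (build GRCm38.p6), 5′ to 3′ on the gene's strand, with every ACGTG or GCGTG of either strand in capitals. Overlapping matches merge into 1 run of capitals. Pdk1 has 2 listed windows, and the printed one was picked by its number of matches in this stretch. The windows are chr14:45318573-45318722, minus strand for Ero1a, chr7:138909507-138909656, minus strand for Bnip3, chr2:71873074-71873223, plus strand for Pdk1, and chr11:54100774-54100923, plus strand for P4ha2.
Ero1a: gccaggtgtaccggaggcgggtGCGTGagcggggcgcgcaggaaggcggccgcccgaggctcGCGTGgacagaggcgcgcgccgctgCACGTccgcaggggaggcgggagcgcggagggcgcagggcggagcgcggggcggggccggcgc
Bnip3: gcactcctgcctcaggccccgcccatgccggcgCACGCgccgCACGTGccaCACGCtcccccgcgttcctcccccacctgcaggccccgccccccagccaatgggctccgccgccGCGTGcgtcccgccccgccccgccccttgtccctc
Pdk1: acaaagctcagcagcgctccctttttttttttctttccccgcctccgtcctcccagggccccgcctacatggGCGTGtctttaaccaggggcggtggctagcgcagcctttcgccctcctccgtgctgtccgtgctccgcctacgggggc
P4ha2: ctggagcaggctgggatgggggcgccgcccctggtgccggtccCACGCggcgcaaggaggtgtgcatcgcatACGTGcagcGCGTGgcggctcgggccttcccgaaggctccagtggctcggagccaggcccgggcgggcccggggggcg

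These stretches hold 3 matches in Ero1a, 5 in Bnip3, 1 in Pdk1 and 3 in P4ha2. Aldoc, whose smaller change (0.92) was above that of P4ha2 (0.87), is not printed and holds 1 match in the same stretch. Over the full promoter windows of 300 bases, ACGTG or GCGTG on either strand occurred in 22 of the 25 opposite glycolysis and hypoxia genes that have a window (88.0%). The share was 84.6% (22 of 26) among the other members of both lists, 78.2% (194 of 248) among all genes that fell in the alpha line and rose in the beta line, and 74.1% (80 of 108) among those that moved the other way. Of all 9783 tested genes with a window, 62.0% held such a match, so these letters are common, and a match is a description of the sequence and not a bound site.

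Opposite members were found from glucose uptake to lactate export. Of 26 measured members of the glycolysis list, 13 were opposite, with a median log2 fold change of -0.37 in the alpha line and 0.59 in the beta line over the list. The glucose transporter Slc2a1 changed by -0.95 and 0.66 (alpha line, then beta line, log2), the phosphofructokinases Pfkl and Pfkp by -1.20 and 0.72 and by -0.57 and 1.23, and the aldolase Aldoa by -0.27 and 0.72. Further down the pathway Tpi1, Pgk1, Pgam1, Eno3 and Pkm were opposite too. The lactate exporter Slc16a3 changed by -0.29 and 0.58. Aldoc changed by -2.13 and 0.92, but another probe set gave an interaction of 0.05.

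Ldha, the lactate dehydrogenase subunit that favours lactate formation, read 9170.2, 9451 and 8930.2 with DMSO and 7381, 6977 and 6482 with GW8510 in the alpha line. The beta line gave 1113, 1105 and 1619 with DMSO and 4332, 4051 and 4763 with GW8510, a larger move than in the alpha line (log2 fold changes -0.40 and 1.80, interaction adjusted p = 3.02e-06 by limma). Ldhb, the subunit of the heart form, was the only member of the glycolysis list with a higher interaction in the alpha line. It rose in both lines, by 1.97 in the alpha line and 0.56 in the beta line. Hk2, a hexokinase found little in healthy beta cells, fell in the alpha line by a log2 fold change of -1.86 and had 0.12 in the beta line, which did not pass. Hk1 had 0.19 in the alpha line and 0.73 in the beta line. Eno2, the neuronal enolase, was lower with the compound in both lines, by -0.96 and -0.94, and its interaction did not pass (adjusted p = 0.899, limma).

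Of 33 measured hypoxia-induced genes outside glycolysis, 16 were opposite with the alpha line down, 20 had a lower interaction, 2 a higher one and 11 did not pass. Adm, the vasodilator peptide adrenomedullin, changed by -2.17 and 0.69, the transcriptional repressor Bhlhe40 by -1.01 and 0.89, and the muscle glycogen synthase Gys1 by -0.997 and 0.60. The collagen-modifying enzymes Plod1, Plod2 and P4ha1 and the mitochondrial proteins Higd1a and Fam162a followed the same pattern. The HIF subunit Hif1a itself had log2 fold changes of -0.19 and 0.08, with an interaction that did not pass (adjusted p = 0.121, limma), and the same held for Epas1 (0.07 and 0.08). Of the HIF hydroxylases, Egln1 fell in the alpha line only (-1.59 and 0.11), and Egln3 rose in both lines and more in the alpha line (1.10 and 0.39). Vegfa, a classical HIF target, was lower in both lines (-0.94 and -0.41) and its interaction did not pass (adjusted p = 0.0624). Car9 and Lox passed in neither line.

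**Figure D2:**
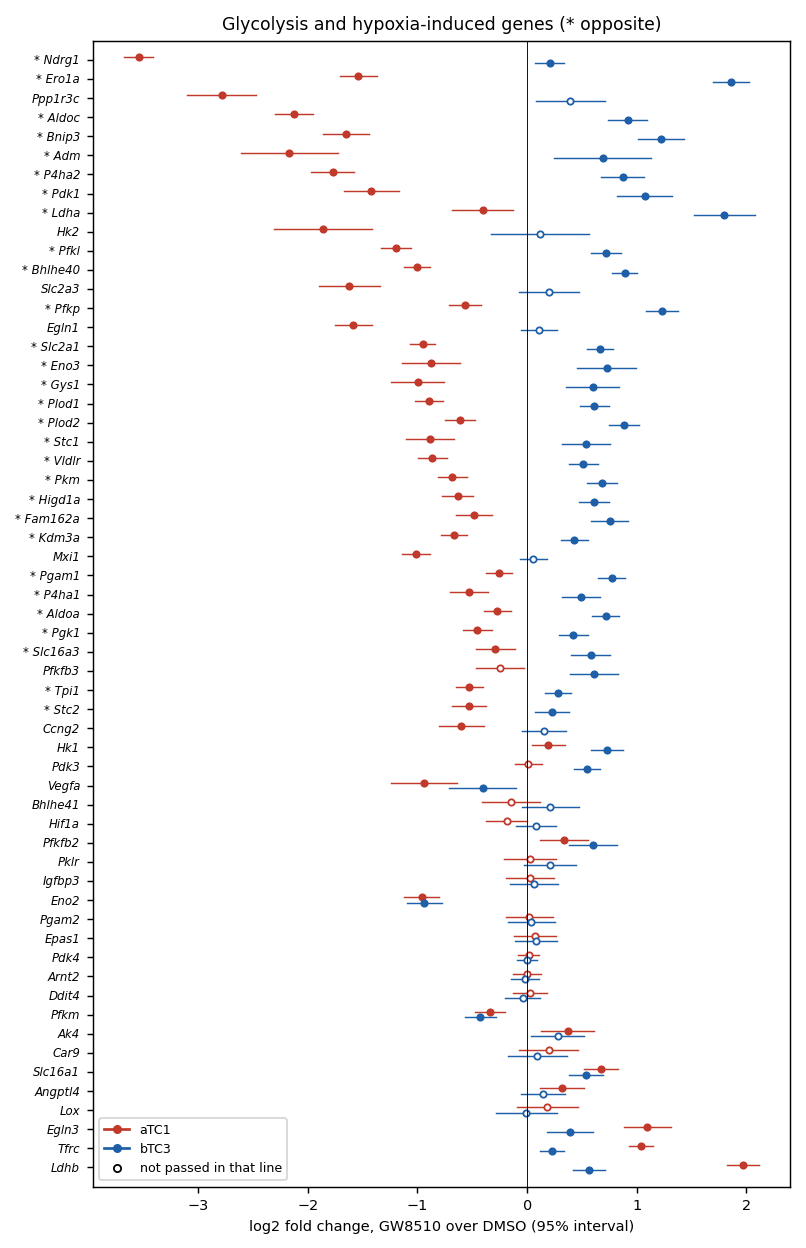
Log2 fold change (GW8510 over DMSO) with its 95% interval for the 59 measured genes of the glycolysis and hypoxia lists, in aTC1 (red) and bTC3 (blue) cells, 3 arrays a group, ordered by the interaction. Filled points passed adjusted p under 0.05 in that line, and the 29 genes marked with a star have red points below 0 and blue points above 0.

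Ndrg1, a hypoxia- and stress-induced gene, had the largest negative interaction of both lists. It read 5372, 5337 and 4819 in the alpha line with DMSO and 449, 446 and 437 with GW8510. Levels in the beta line were 3020.4, 2818 and 2922 with DMSO and 3186, 3483 and 3434 with GW8510, a small rise that passed in the fit. Its interaction was -3.75 ± 0.08 (SE, limma, adjusted p = 7.36e-11), with -3.65 to -2.68 by its other probe sets, and it meets the definitions of an opposite and of an alpha-only gene.

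The largest opposite responses of all belonged to secreted proteins of liver type. Serpina1b and Serpina1c, genes of the protease inhibitor alpha-1-antitrypsin, had log2 fold changes of -3.79 and -2.19 in the alpha line and 2.52 and 4.38 in the beta line. Serpina1c read 1971, 1866 and 1669.7 with DMSO and 361, 427 and 422 with GW8510 in the alpha line. The beta line gave 123, 105 and 107 with DMSO and 2431, 2115 and 2437 with GW8510, so the line with the higher level changed with treatment. These genes are near-identical paralogs whose probe sets can bind each other's transcripts, so the values cannot be assigned to 1 gene.

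Spp2, a secreted phosphoprotein made in liver and bone, read 1859, 1679 and 1625 with DMSO and 164, 149 and 139.8 with GW8510 in the alpha line. The same gene in the beta line read 547, 474 and 516 with DMSO and 1181, 951 and 1382 with GW8510 (interaction -4.69 ± 0.17, SE, limma, adjusted p = 3.82e-09). The carriers Rbp4 and Apoa2 moved the same way by less, with -0.38 and -0.30 in the alpha line and 0.68 and 0.57 in the beta line. Of 36 measured genes of this list 5 were opposite, all with the alpha line down, against 2.47% of all genes, and Serpina1b and Serpina1c are among the 5. The interaction was higher in the alpha line for 4, lower for 7 and did not pass for 25, beside 12% higher and 16.4% lower over all genes. The median interaction of the list was -0.12, against -0.04 over all genes.

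Other genes in the same direction were Gas2, a microfilament-associated protein of growth arrest (-1.03 and 1.93), the betaine and GABA transporter Slc6a12 (-1.10 and 1.002), Frmd4b (-1.17 and 0.97) and the recombination gene Rad51b (1.90 in the beta line and an interaction of -2.90). Another probe set of Rad51b gave an interaction of -0.12. Of the 74 opposite genes with at least 0.5 in each line, 39 had another probe set. In 37 of them every other probe set gave an interaction of the same sign, and in 25 every other probe set moved in opposite directions too.

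Genes that rose in the alpha line and fell in the beta line were fewer (144 against 303), and the median of the smaller of both changes was 0.29, close to 0.30 in the other direction. Cntnap2, an adhesion molecule of the neurexin family, read 33.8, 41.6 and 29.7 with DMSO and 134, 124 and 147 with GW8510 in the alpha line. Its beta line values were 68.8, 95 and 76.3 with DMSO and 34.2, 38.3 and 34 with GW8510. The groups did not overlap in either line, but the levels were low, and its other probe sets gave interactions of 0.15 and 0.33 beside 3.12 ± 0.19 here (SE, limma, adjusted p = 2.94e-07).

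Palld, the actin-binding protein palladin, read 103, 98.6 and 86.9 with DMSO and 197, 178 and 195 with GW8510 in the alpha line. Its beta line values were 502, 574 and 497 with DMSO and 168, 171 and 186 with GW8510, so that the lines ended at nearly the same level. Celf4, an RNA-binding protein of neurons, began near one level in both lines, at 1675, 1722 and 1785 in the alpha line and 2108, 1885 and 2025 in the beta line. With GW8510 it stood at 3157, 3232 and 3463 in the alpha line and 1053, 993 and 1254 in the beta line, entirely apart (interaction 1.80 ± 0.12, SE, limma, adjusted p = 5.21e-07). Ckmt1, the mitochondrial creatine kinase, also began near one level and had the largest interaction among these genes, 3.75 ± 0.10 (SE, limma, adjusted p = 5.66e-10). It rose from 291, 277 and 281 with DMSO to 2084, 2058 and 2259 with GW8510 in the alpha line and fell from 402, 408 and 342 with DMSO to 209.9, 206 and 225 with GW8510 in the beta line.

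The others named by the rule were Plekha7, a protein of adherens junctions (0.94 and -0.98), the hydroxysteroid dehydrogenase Akr1c14 (0.84 and -1.11), Fam102a (1.63 and -0.76), the spindle protein Psrc1 (1.43 and -0.67) and the linker histone H1f2 (0.75 and -1.56). One of the other probe sets of H1f2 gave an interaction near 0. Pisd-ps3 (0.65 and -1.11) is a pseudogene whose probe set may also bind transcripts of its parent gene. Of 43 measured members of the p53 target list, 5 rose in the alpha line and fell in the beta line, beside 1.18% of all genes, and 0 moved the reverse way. They were Ak1 (1.79 and -0.62), Zmat3, Abhd4, Klhl26 and Ckap2. Pdx1, the beta cell transcription factor, rose from 73.1, 74 and 65.4 with DMSO to 368, 398 and 355 with GW8510 in the alpha line and went from 3244, 3403 and 3181 with DMSO to 2779, 2808 and 2967 with GW8510 in the beta line, where the log2 fold change of -0.20 passed. Even the raised level in the alpha line stayed well under that of the beta line, and another probe set of Pdx1 gave an interaction of 0.39 beside 2.60.

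**Figure D3:**
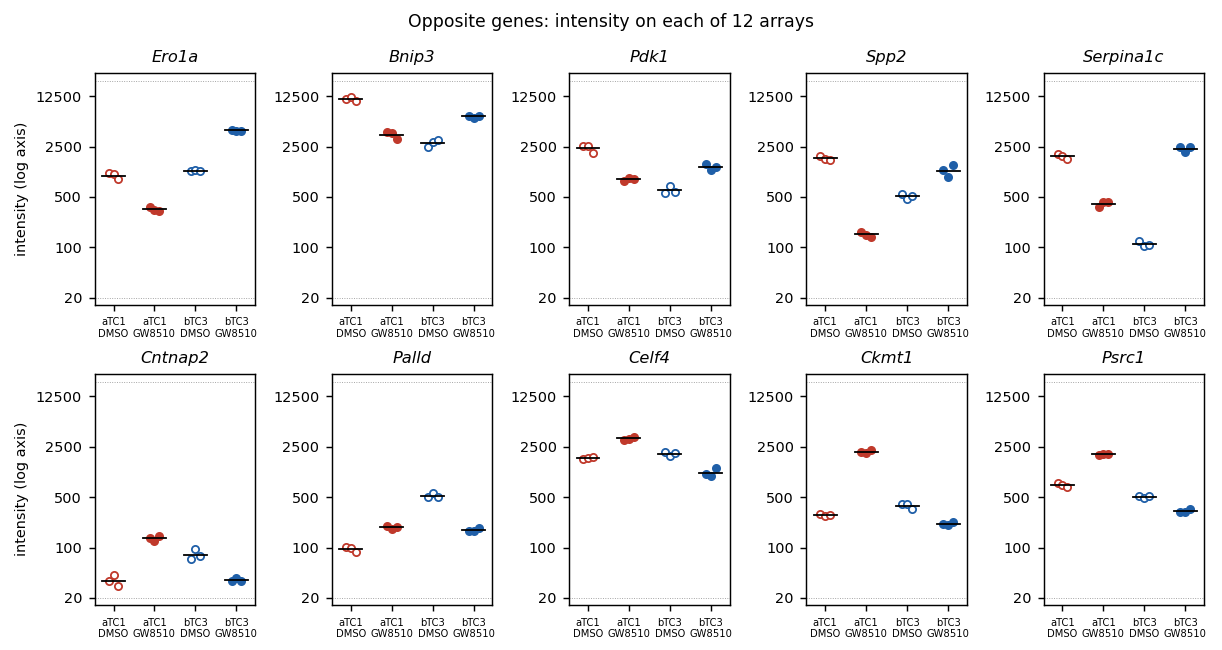
Intensity (log axis) of 10 opposite genes on each of 12 arrays, with aTC1 in red, bTC3 in blue, open points for DMSO and filled points for GW8510, black lines at the mean of log2 values of 3 arrays, and dotted lines at the bounds of 20 and 20000. In the upper row red points fall and blue points rise with GW8510, and in the lower row the reverse is seen.

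A gene was counted as moving in 1 line when the interaction and that line's response passed, the response was at least 1 on the log2 scale (2-fold), and the 95% interval in the other line lay within -0.5 and 0.5. In the alpha line alone 157 genes rose (1.28% of those tested) and 96 fell (0.783%), and in the beta line alone 55 rose (0.449%) and 18 fell (0.147%). The responding line's arrays lay apart for every one of these 326 genes, and the largest change in the other line was 0.38. Both follow largely from how the class was defined, and the share of all genes whose arrays lay apart was not counted. The smallest response inside the alpha-only rises was 1.0003 and the largest outside was 0.996, so the mark of 1 cuts a continuous range. Within the other line a small change still passed in 41 of the 157, 24 of the 96, 9 of the 55 and 3 of the 18.

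The largest rise in the alpha line alone was that of Rgs5, a regulator that shortens G-protein signals. It read 42.9, 45.6 and 42.9 with DMSO and 2604, 2354 and 2518 with GW8510 in the alpha line. In the beta line it read 28.8, 27 and 28.5 with DMSO and 32.3, 28.2 and 35.9 with GW8510, close to the lower bound throughout (interaction 5.64 ± 0.11, SE, limma, adjusted p = 4.31e-11, and 2.52 to 4.45 by its other probe sets). Nectin4, a cell adhesion molecule, rose from 50.7, 50.5 and 47.9 with DMSO to 764, 732 and 791 with GW8510 in the alpha line and read 45, 59.2 and 51.9 with DMSO and 46.6, 55.1 and 63 with GW8510 in the beta line. Fabp2, which binds fatty acids in the gut, and Acaa1b, a peroxisomal thiolase, had log2 fold changes of 3.33 and 3.33 in the alpha line and 0.25 and -0.03 in the beta line. Aldh1l1, a folate enzyme, had a similar rise (3.95 and -0.24), but its interval in the beta line was too wide for the class, and another probe set gave an interaction of 0.51.

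Cd68, a lysosomal glycoprotein best known from macrophages, read 66.8, 55.9 and 62 with DMSO and 654, 612 and 698 with GW8510 in the alpha line, and 36.8, 38.1 and 40.5 with DMSO and 43, 41.7 and 50.5 with GW8510 in the beta line. Tek, an endothelial receptor for angiopoietins, rose from 22, 21.7 and 20.4 with DMSO to 233, 193 and 232 with GW8510 in the alpha line and was at 24.3 or less on every beta array. Both are markers of other cell types, so the remaining markers were read beside them. Of the blood cell markers Ptprc was at 20 on 11 of 12 arrays and 23.7 on the other, and Adgre1 was at 32.6 to 48.3. The summed intensity of the 7 measured blood cell markers was 421.6 to 436.6 on the alpha DMSO arrays and 1029 to 1116 on the alpha GW8510 arrays, and Cd68 accounts for most of that rise. Cd3e went from 116.4 to 119.2 with DMSO to 144.6 to 152.6 with GW8510 in the alpha line, where Lyz2 was at 72.2 to 97.2, Cd79a at 46.5 to 72.8 and Hba-a1 at 45.6 to 72.1. Among 5 endothelial markers the sum was 256.9 to 268.3 and 459.6 to 565.5 in the same groups, and the rise of Tek is part of it. Kdr went from 94.5 to 103.5 with DMSO to 104.0 to 156.7 with GW8510 in the alpha line. Pecam1 was at 36.9 to 53.1 in the alpha line, Cdh5 at 29.6 to 41.7 and Vwf at 63.6 to 80.7. In such bulk samples a change in the share of cells that express a gene and a change in RNA per cell cannot be told apart.

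Targets of p53 were the list with the most alpha-only rises. Of 43 measured members, the interaction was higher in the alpha line for 29, lower for 4 and did not pass for 10, with a median interaction of 0.89 against -0.04 over all genes, and 15 were alpha-only rises. Over all genes 12% had a higher and 16.4% a lower interaction, and 1.28% were alpha-only rises. The cyclin Ccng1 rose from 1648, 1660.3 and 1597 with DMSO to 11337, 11393 and 12103 with GW8510 in the alpha line and from 1755, 1735 and 1651 with DMSO to 2185, 2241 and 2269.6 with GW8510 in the beta line. The p53 ubiquitin ligase Mdm2 changed by 1.55 and 0.14 (alpha line, then beta line, log2), and the cell cycle inhibitor Cdkn1a, which misses the alpha-only class because its interval in the beta line reaches 0.62, had 2.32 and 0.48. Dcxr, a xylulose reductase, rose from 357, 381 and 353 with DMSO to 2481, 2898 and 2718 with GW8510 in the alpha line and read 229.9, 247 and 246 with DMSO and 226, 222 and 238 with GW8510 in the beta line. The death receptor Fas (2.21 and 0.10), the apoptosome protein Apaf1 (1.53 and 0.01), the DNA polymerase Polk and Phlda3, an inhibitor of Akt, were further members. Perp, a desmosomal p53 target, went the other way, with 0.29 in the alpha line and 2.99 in the beta line, and Gadd45a and Cd82 were alpha-only falls.

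Other alpha-only rises were B2m (1.90 and 0.22) and Tapbp (1.20 in the alpha line, with an interaction of 1.21), which serve peptide presentation on class I molecules, and the glutathione transferase Gstm2 (2.15 and -0.21). Tap1, which belongs to the same presentation pathway, rose by 1.22 in the alpha line, but other probe sets gave interactions near 0. Chga, the granule protein chromogranin A, rose from 5659.9, 5406 and 5486 with DMSO to 12478, 12832 and 12225 with GW8510 in the alpha line and had a small fall in the beta line (-0.29), which places it in both definitions. Iapp (140.4, 148 and 131 with DMSO and 367, 350.2 and 429 with GW8510 in the alpha line) and Ttr also meet the rule of an alpha-only rise, but both were at 20000 on all 6 beta arrays, so a rise there could not be seen and their place in the class carries no information. Gcg, Ins2 and Tmsb4x are the other genes with a called interaction and 1 line wholly at the upper bound, and for all 5 the interaction covers only what the bound allows. The interaction of Gcg (-0.91) reflects its rise in the beta line against alpha arrays that could not go higher.

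Genes of the integrated stress response, in which the factor ATF4 raises amino acid synthesis and stress genes, often had a lower response in the alpha line. Of 42 measured members, 26 had a lower interaction in the alpha line, 3 a higher one and 13 did not pass, with a median of -0.52, and 12 were opposite with the alpha line down, beside 16.4% lower, 12% higher and 2.47% opposite in this direction over all genes. Ddit3, the stress factor CHOP, read 2573, 2351 and 1980.2 with DMSO and 438, 438 and 473 with GW8510 in the alpha line, and 843, 882 and 892 with DMSO and 784, 763 and 822 with GW8510 in the beta line. Trib3, a pseudokinase, was likewise an alpha-only fall (-2.35 and -0.21). Nupr1, a stress-induced nuclear protein, read 1534, 1516 and 1275 with DMSO and 144, 168 and 177 with GW8510 in the alpha line, and 291, 256 and 257 with DMSO and 418, 377 and 459 with GW8510 in the beta line (interaction -3.79 ± 0.15, SE, limma, adjusted p = 7.14e-09). Atf3 was opposite too (-2.13 and 0.44). Chac1, which degrades glutathione, fell in both lines and by more in the alpha line (-2.79 and -0.54), from nearly equal levels with DMSO.

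Bases -150 to -1 before the RefSeq start sites of Nupr1 and Atf3 are shown because both genes had the lowest interactions of this list and hold a core of the ATF4 element. The letters TGATGNAA on either strand are in capitals (build GRCm38.p6, chr7:126625471-126625620, minus strand for Nupr1 and chr1:191183334-191183483, minus strand for Atf3). N stands for any base.
Nupr1: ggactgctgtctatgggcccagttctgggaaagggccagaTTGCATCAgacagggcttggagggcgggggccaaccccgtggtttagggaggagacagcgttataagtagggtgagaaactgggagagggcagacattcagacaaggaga
Atf3: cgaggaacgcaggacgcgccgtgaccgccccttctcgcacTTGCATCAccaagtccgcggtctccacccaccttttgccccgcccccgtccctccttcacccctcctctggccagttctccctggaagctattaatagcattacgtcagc

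Over windows of 300 bases TGATGNAA occurred in 9 of 22 genes of the list with a lower interaction (40.9%), in 3 of the other 14 (21.4%) and in 3.09% of the 9783 tested genes with a window. Chac1, Ddit3, Trib3 and Ppp1r15a, which followed Nupr1 and Atf3 in order of interaction, have 0 matches in bases -150 to -1. Over 300 bases Chac1 and Trib3 have 1 match each, and Ddit3 and Ppp1r15a have 0. The list was made of genes known for this response, so a share above that of all genes says nothing about GW8510.

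The remaining alpha-only falls named by the rule were Apof, a liver apolipoprotein (-2.75 and -0.17), the receptor phosphatase Ptprk (-2.74 and 0.20) and the calcium channel subunit Cacng5 (-2.65 and 0.28). Another probe set of Cacng5 gave an interaction of -0.40 beside -2.93. Selenbp1, a selenium-binding protein, fell from 4920.4, 5085 and 4396 with DMSO to 591, 520.4 and 485 with GW8510 in the alpha line and read 35.6, 38.1 and 38.5 with DMSO and 56.6, 43.8 and 77.5 with GW8510 in the beta line, all low. It is an opposite gene and not an alpha-only one, since the small rise in the beta line (0.63) passed, but another probe set gave -0.20 there. The ER stress gene Herpud1 and the factor Creb3l2 were alpha-only falls (-1.37 and -1.61 in the alpha line, -0.23 and -0.24 in the beta line). So was Stard4, a sterol carrier (-1.33 and -0.05).

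The largest response in the beta line alone was that of Slc2a2, the glucose transporter GLUT2 of beta cells and liver. It read 91.6, 88.7 and 82.3 with DMSO and 2993, 2876 and 3242 with GW8510 in the beta line. In the alpha line it read 24.6, 23.4 and 23.8 with DMSO and 23.2, 22.9 and 20.9 with GW8510, close to the lower bound of 20 (interaction -5.21 ± 0.09, SE, limma, adjusted p = 2.58e-11). The low-affinity transporter Slc2a2 and the transporter Slc2a1 thus both rose in the beta line, and Slc2a1 fell in the alpha line.

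The RIKEN gene 2210409E12Rik began near the same low level in both lines and rose from 40.8, 43.8 and 42.2 with DMSO to 593, 575 and 619 with GW8510 in the beta line, against 46.4, 43.8 and 48.2 with DMSO and 55.4, 63.7 and 52.8 with GW8510 in the alpha line. C4bp, a complement regulator, rose from 284, 258 and 260.1 with DMSO to 1428, 1411 and 1132 with GW8510 in the beta line, and in the alpha line it lay between 52 and 68.3. The zinc and manganese transporter Slc39a8 had a log2 fold change of 2.33 in the beta line and was at 20 on all 6 alpha arrays, where a level below that bound could not be read. The hydroxysteroid dehydrogenase Akr1c18 (2.16 in the beta line, 0.14 in the alpha line) and Anxa2, a calcium-dependent membrane protein (2.10 and -0.20), complete the named set. For Anxa2 the other probe sets gave interactions of -0.70 and 0.19. Rises in the beta line from a level that stayed low in the alpha line were also seen for the tight junction gene Cldn1 (2.81 and 0.30, with an interaction near 0 by 1 of its other probe sets), which misses the class because the alpha interval ends above 0.5.

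Falls in the beta line alone were the rarest class. Derl3, a component of ER-associated degradation, read 498, 423 and 526 with DMSO and 105, 106 and 164 with GW8510 in the beta line, and 172, 175 and 153 with DMSO and 203, 149 and 146 with GW8510 in the alpha line. The histone H2aw fell from 310.1, 327 and 319 with DMSO to 85.3, 77.3 and 95.3 with GW8510 in the beta line and read 274, 258 and 255 with DMSO and 251, 327 and 352 with GW8510 in the alpha line, from similar DMSO levels. The cadherin Cdh8, the receptor kinase Alk, the insulin receptor adaptor Grb14 and Adtrp had log2 fold changes of -1.68, -1.51, -1.41 and -1.39 in the beta line. In the alpha line these 4 genes lay between 22.2 and 56.9 on every array, so a fall there would have had little room.

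**Figure D4:**
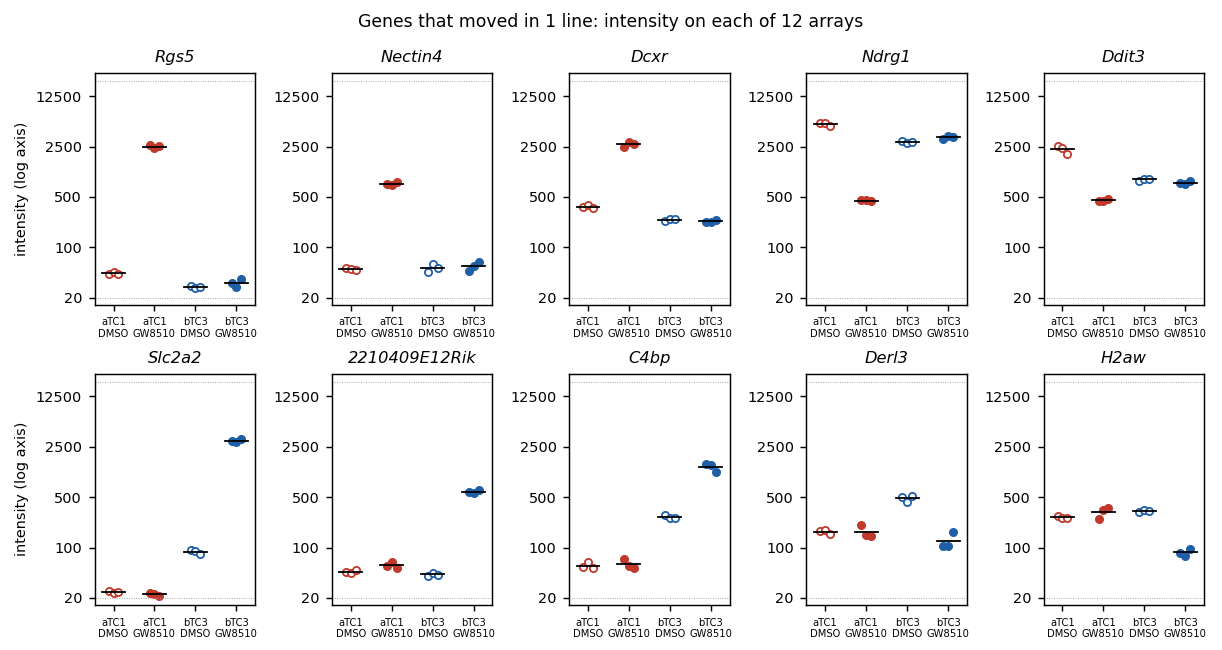
Intensity (log axis) of 10 genes that moved in 1 line on each of 12 arrays, with aTC1 in red, bTC3 in blue, open points for DMSO and filled points for GW8510, black lines at the mean of log2 values of 3 arrays, and dotted lines at the bounds of 20 and 20000. The first 5 genes moved in aTC1 and the last 5 in bTC3, and Rgs5 and Slc2a2 stay near 20 in the other line.

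The cell cycle lists differed between the lines by small amounts in many genes. Of 50 measured G2 and mitosis genes, 36 had a lower interaction in the alpha line, 1 a higher one and 13 did not pass, with a median of -0.41, whereas over all genes 16.4% were lower and 12% higher. The largest were Anln, which builds the contractile ring (-0.99 in the alpha line and 0.14 in the beta line), the condensin subunit Ncapd2 (-1.22 and -0.16) and the spindle protein Prc1 (-0.71 and 0.21). Bub1, Ccnb2, Kif2c, Plk1, Prc1 and Tacc3 were opposite, with beta rises of 0.21 to 0.42. Of 51 DNA replication genes, 20 had a lower and 4 a higher interaction, and 27 did not pass, to be read against the same shares. Of 15 D cyclins and CDK inhibitors 8 had a higher interaction and 3 a lower one, among them Ccnd2 (1.89 and -0.04) and Ccnd1 (1.15 and -0.09) on the higher side and Cdkn1b (-1.30 and -0.50) on the lower.

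In most of the other lists the lines differed in both directions, or seldom, while oxidative phosphorylation leaned to the higher side and exocytosis to the lower. Oxidative phosphorylation had 15 of 61 members higher and 3 lower, by small amounts such as 0.83 for Ndufb6 and 0.47 for Sdha. Lysosomal genes had 16 of 49 higher and 9 lower, with the largest differences for Cd68, a lysosomal membrane protein (3.41 and 0.22), and the mannosidase Man2b1 (2.92 and 0.48). Another probe set of Man2b1 gave an interaction of 0.74 beside 2.44. Antioxidant and NRF2 genes had 18 of 48 higher and 12 lower, and sterol and fatty acid synthesis had 8 of 36 higher and 15 lower, with Scd1 (-0.90 and 0.63) and the sterol reductase Tm7sf2 (-0.55 and 1.30) opposite. ER folding had 13 of 39 higher and 7 lower, and exocytosis 4 of 36 higher and 13 lower. The proteasome had 2 of 34 higher and 3 lower, and ribosome biogenesis 7 of 46 higher and 5 lower, beside 12% and 16.4% of all genes. Neuronal cytoskeleton genes had 10 of 37 higher and 8 lower, and islet transcription factors 6 of 30 higher and 10 lower. Fatty acid oxidation had 13 of 49 higher and 8 lower, interferon and antigen presentation genes 8 of 41 and 6, and immediate early genes 7 of 33 and 9. Islet hormones and peptides had 6 of 26 higher and 5 lower, glucose sensing and granule processing 5 of 23 and 4, keratin and adhesion genes 9 of 41 and 5, and IGF and insulin signalling 5 of 26 and 7. The islet factor Hes1 was opposite with the alpha line down (-0.54 and 0.71).

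Whether the level before treatment goes with these differences was described from the DMSO arrays, without a test, because the DMSO arrays enter both quantities. Over all genes the correlation of the DMSO difference (alpha minus beta line, log2) with the interaction was -0.21 (Pearson, across 12255 genes that are not independent), and over the 447 opposite genes it was -0.51. Shared DMSO arrays alone can give a negative value, and their part was not tested. Where the alpha line stood higher by at least 2 on the log2 scale with DMSO (221 genes), the interaction was called lower for 57.9% and higher for 9.05%. Where the DMSO levels lay within 0.5 of each other (8228 genes), these shares were 12.5% and 8.48%. Where the beta line stood higher by at least 2 (290 genes), they were 16.2% and 33.8%.

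The classes differed in how their members stood before treatment. Among the 96 alpha-only falls 54 were at least 2-fold higher in the alpha line with DMSO (56.3%, against 7.14% of all genes), 3 were higher in the beta line and 23 lay within 0.5. Among the 18 beta-only falls 15 were at least 2-fold higher in the beta line (83.3%, against 7.89% of all genes), and 9 were in the dimmest 25% of intensities in the alpha line in both conditions. A gene that is barely read in a line has no room to fall there. This applies to those 9 beta-only falls (50%) and, in the beta line, to 17 of the 96 alpha-only falls (17.7%). Of all genes, 24.3% were this dim in both conditions of the alpha line and 24.6% in those of the beta line. The rises were less one-sided: of 157 alpha-only rises 25 were higher in the alpha line, 38 were higher in the beta line and 69 lay within 0.5, while of 55 beta-only rises the counts were 15, 23 and 14. In the other line 42 of the alpha-only rises (26.8%) and 25 of the beta-only rises (45.5%) stayed in the dimmest 25% in both conditions, as Rgs5 and Slc2a2 did. The first share is close to the 24.6% of all genes in the beta line, and the second is above the 24.3% in the alpha line.

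Among the 57 genes with the alpha line down and the beta line up by at least 0.5 each, 29 were at least 2-fold higher in the alpha line with DMSO (50.9%), 4 in the beta line and 14 lay within 0.5. Among the 17 genes of the reverse kind 9 were higher in the beta line, 2 in the alpha line and 3 lay within 0.5. For the 29 opposite glycolysis and hypoxia genes the median DMSO difference was 1.23, with 16 at least 2-fold higher in the alpha line, 1 in the beta line and 3 within 0.5. With GW8510 the median difference between the lines was -0.14, and for 21 of the 29 the lines stood nearer to each other than before. The lines also stood nearer for 46.8% of all genes and for 49.5% of all 303 genes of this direction. A gene that starts higher in the alpha line, falls there and rises in the beta line moves towards the other line by definition, unless it passes it by more. Ero1a, Aldoc and P4ha1 were the 3 that began within 0.5.

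**Figure D5:**
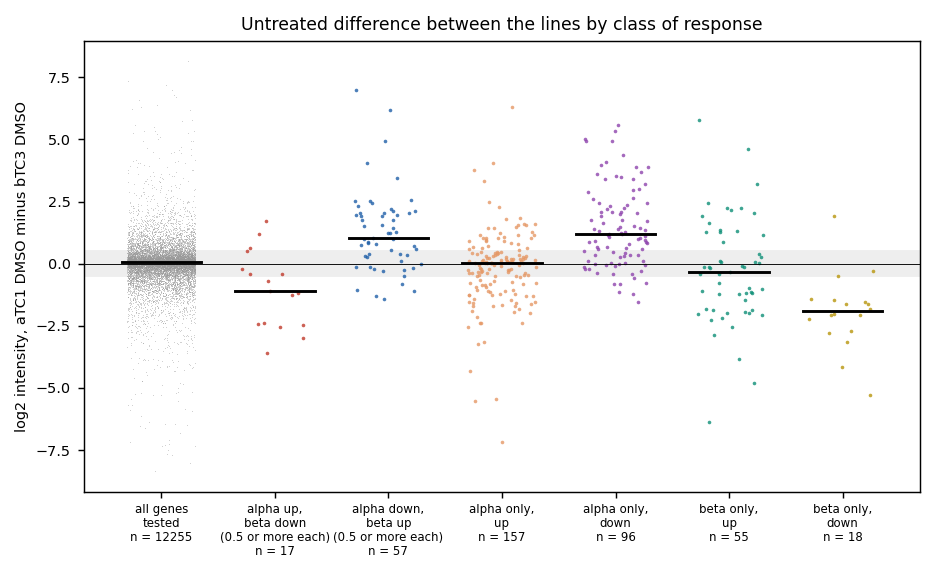
Difference in log2 intensity between aTC1 and bTC3 cells with DMSO (3 arrays each) for each gene of a class, with black lines at medians and a grey band at -0.5 to 0.5. Genes that fell in aTC1 lie mostly above 0, genes that fell in bTC3 mostly below 0, and the rises lie on both sides.

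Called interactions were also found among genes with similar levels before treatment, here described without a test. Of 5174 genes whose DMSO levels lay within 0.5 of each other and above the dimmest 25% in both lines, 1539 (29.7%) had a called interaction, against 43.8% of the 3425 genes above the same mark whose levels lay further apart. An interaction of at least 1 was called for 2.11% of the first and 8.06% of the second. With dim genes included these shares of called genes were 21.0% and 43.7%. Over all genes 3.65% were opposite, 2.66% moved in 1 line and 0.60% were opposite by at least 0.5 in each line. Among the 3425 genes further apart these shares were 7.18%, 4.41% and 1.46%. Each kind was less frequent among the 5174 genes: 176 were opposite (3.40%), 73 moved in 1 line (1.41%) and 17 were opposite by at least 0.5 in each line (0.33%). Those 17 were Aldoc, Celf4, Ckmt1, Dop1b, Ephb3, Ero1a, Gas2, H2ac19, Macrod1, Mt2, Nefl, Porcn, Rad51b, Septin6, Slc37a4, Tm7sf2 and Tsc22d3.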

How the data were processed

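The authors deposited 1 table of array intensities, made with RMA according to the submitters' processing notes (version not given), on a linear scale with bounds of 20 and 20000. The log2 was taken with no pseudocount. Of 22690 probe sets 20380 carry 1 gene symbol, 691 several and 1555 none, and 64 are controls. After leaving out 330 at a bound on all arrays, each gene was read from its probe set of highest mean intensity. All 12 arrays were fitted with group means in limma 3.58.1 (R 4.3.3), with Benjamini-Hochberg adjustment over 12255 genes, and the sources name no test for these arrays. On simulated arrays with known changes, 48 of 50 opposite genes of 0.5 in each line were called for the interaction. The planted genes were of middle intensity, and the simulated noise held no shift of a whole array. This figure is for the interaction call, so it does not give the sensitivity for the opposite class or for dim genes. Named genes are the 10 opposite genes with the largest smaller change in each direction, the 6 largest of each 1-line class, the 8 largest interactions each way, up to 4 members of each of 25 gene lists, and markers of the lines. Further list members were chosen after their values were seen. All members and lists were chosen with earlier results of these data known. Promoter windows and symbols are from RefSeq (GRCm38.p6), and 9783 genes had a window. Settings varied were normalization, probe set choice, filters, pseudocounts of 1, 16 and 64, the variance estimate, array weights, thresholds, blocking by replicate number and leaving out single arrays. The genes Bax, Gapdh, Ins1 and Trp53 were not analysed here.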

Additional observations from a re-analysis of the deposited data

Results flagged for a closer look

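The difference between the lines was tested for each gene, and it passed for 1475 genes with the alpha line higher and 2013 with the alpha line lower (limma, adjusted p under 0.05). The largest differences with the alpha line higher were those of Rgs5 (5.64, log2), Aldh1l1 (4.19), Nectin4 (3.86), Ckmt1 (3.75), Acaa1b (3.35), Tek (3.29), Enc1 (3.19) and Cd68 (3.19). The largest with the alpha line lower were those of Serpina1c (-6.57), Serpina1b (-6.31), Slc2a2 (-5.21), Spp2 (-4.69), Selenbp1 (-3.80), Nupr1 (-3.79), Ndrg1 (-3.75) and 2210409E12Rik (-3.51). Enc1, an actin-binding protein, rose in the alpha line (2.88) and had -0.31 in the beta line, from a level -3.24 lower than there with DMSO (alpha minus beta line, log2).

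Probe sets outside the comparison by gene also differed between the lines. The interaction passed for 235 of 1467 probe sets with no gene symbol and for 163 of 658 with several symbols, against 4 of 60 control probe sets. Their genes are not named here.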

How the results depend on the processing

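The interactions of 129 named genes kept their sign under the 27 settings in which single genes were followed. In these settings 30 of 3469 checks lost the call, all in the proteasome genes Psme3, Psmb2, Psmc6 and Psmd4. Reading every probe set on its own was not among the 27, and for some named genes, such as Aldoc, Anxa2 and Cldn1, another probe set gave the other sign. Counts moved more. The opposite genes with the alpha line up were 246 with quantile normalization, 296 with array weights and 226 without beta GW8510 replicate 3 and with quantile normalization, a setting chosen after seeing the data. At adjusted p under 0.01 in each line 71 genes (alpha up) and 163 (alpha down) were opposite. Array weights called 2280 interactions with the alpha line higher, and 2612 of all called interactions lay within 0.5 with DMSO in place of 1729. Counting every probe set gave 3074 interactions with the alpha line lower, 7946 responses in the alpha line, 6487 in the beta line, 11135 untreated differences and 29 beta-only falls, with more features tested. With the other line's interval held within 0.3, the alpha-only rises and falls and beta-only rises and falls were 65, 33, 13 and 6, and with a response of at least 1.5-fold they were 422, 359, 187 and 84.

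Leaving out each array in turn gave 1231 to 1775 interactions with the alpha line higher and 1675 to 2124 lower, 4481 to 5440 responses in the alpha line, 3376 to 4542 in the beta line and 6333 to 7132 untreated differences. It gave 100 to 205 opposite genes with the alpha line up and 233 to 300 with it down. The 1-line counts were 139 to 174, 81 to 103, 43 to 61 and 15 to 23, and 1427 to 1847 called interactions lay within 0.5 with DMSO. Of the 447 opposite genes 337 to 403 remained, and of the 326 others 292 to 309.

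Arrays of the same replicate number did not deviate together (correlations of -0.30 to 0.14), so the numbers were not used as pairs. A replicate block gave 1374 and 1852 interactions and 130 and 271 opposite genes. Blocks within each line gave 1293 and 1759, and 118 and 251. The number of arrays, the bounds and dim probe sets limit what can be read, and a fall of a gene near 20 or a rise of a gene at 20000 was not detectable.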
